A study of Mus musculus with 6 samples.

Results

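Casp1, Casp4, Casp8, Gsdmd, Ripk1, Ripk3 and Mlkl encode the inflammatory and initiator caspases and the executioners of lytic cell death. They were chosen by name, and each of the 7 symbols matched 1 Ensembl gene among the 52856 rows of the deposited count table. Their identifiers are ENSMUSG00000025888 (Casp1), ENSMUSG00000033538 (Casp4), ENSMUSG00000026029 (Casp8), ENSMUSG00000022575 (Gsdmd), ENSMUSG00000021408 (Ripk1), ENSMUSG00000022221 (Ripk3) and ENSMUSG00000012519 (Mlkl). They were followed by RNA-seq in stimulated CD4+ T cells from the spleens of miPEP31 KO mice (miPEP31-/-, 3 libraries) and WT mice (wild type, 3 libraries). The deleted peptide, miPEP31, comes from the precursor RNA of miR-31. All mice were C57BL/6 and 8 weeks old, and all cells had received anti-CD3/28 antibodies for 48 hours in medium with serum. How the miPEP31-/- allele was made, and whether each library came from its own animal, is not stated in the labels, so p-values measure the spread between these libraries, which may be technical. The Mir31 row was listed at 0 in all 6 libraries and does not check the genotype labels.

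Lytic death follows a small number of routes. In pyroptosis, caspase-1, activated in inflammasomes, or caspase-11, the product of mouse Casp4 that senses cytosolic lipopolysaccharide, cuts gasdermin D (Gsdmd), whose released fragment forms pores in the plasma membrane. In necroptosis, the kinases RIPK1 and RIPK3 join through a shared interaction motif, RIPK3 phosphorylates the pseudokinase MLKL, and MLKL permeabilizes the membrane. Caspase-8, the initiator of death receptor apoptosis, cuts RIPK1 and RIPK3 and restrains necroptosis, and activated T cells that lack it are known to die in a RIPK3-dependent way.

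The KO libraries held 22865487 to 26295776 counts, and the WT libraries 23398486 to 24018687. Cd4, which defines the labelled cells, averaged 307 ± 10.3 CPM (counts scaled to the library total) in KO and 449 ± 38.1 CPM in WT (SD, n = 3 each). Of 8 T cell markers 7 were lower in the KO (edgeR adjusted p under 0.05, as were 22.2% of all tested genes), with a summed level of 1700 to 1860 CPM in KO and 2160 to 2240 CPM in WT. None of the 8 was at 0. Summed markers of macrophages and monocytes stood at 34.6 to 66.7 CPM in KO and 6.54 to 9.76 CPM in WT, and 1 of the 10, Mpeg1, carried most of the KO sum, at 63.0, 38.8 and 28.3 CPM. Among their defining markers Adgre1 was at 0 in all 6 libraries and Csf1r did not exceed 0.131 CPM. Lyz2 had 5, 7 and 10 counts in KO and 0, 0 and 1 in WT, and Mertk had 11, 9 and 1 counts in KO and 0, 0 and 1 in WT. Itgam went the other way, with 0, 2 and 8 counts in KO and 22, 15 and 11 in WT (edgeR adjusted p = 0.0395). It passed the count filter through the WT libraries alone. Cd68 averaged 3.97 CPM in KO and 5.38 CPM in WT (edgeR adjusted p = 0.224). Of the 10 markers 3 were tested, and 1 was higher and 1 lower. Dendritic cell markers summed to 112 to 131 CPM in KO and 22.4 to 27.7 CPM in WT, of which Batf3 held 98.9 to 117 CPM in KO and 16.2 to 21.1 CPM in WT, while Clec9a and Cd209a were at 0 in all 6. Of the 8 dendritic markers 4 were tested and 2 were higher, Batf3 and Zbtb46, with Zbtb46 at 9.51 ± 1.84 CPM in KO and 4.47 ± 1.21 CPM in WT (SD, n = 3 each). Neutrophil markers summed to at most 0.228 CPM in KO and 1.45 CPM in WT, with S100a8, S100a9, Elane and Camp at 0. B cell markers summed to 66.0 to 134 CPM in KO and 65.2 to 95.1 CPM in WT, CD8 T cell markers to 16.0 to 37.5 CPM in KO and 12.3 to 15.5 CPM in WT, NK cell markers to 11.5 to 22.3 CPM in KO and 5.86 to 8.09 CPM in WT, and erythroid and platelet markers to at most 0.989 CPM in KO and 0.684 CPM in WT. Of the 5 NK cell markers 1, Eomes, carried most of the sum, at a mean of 15.7 CPM in KO and 5.25 CPM in WT. Of these 5 markers 3 were tested, and 1, Eomes, was higher. Klrb1c and Klre1 averaged lower in KO but did not pass (edgeR adjusted p = 0.286 and 0.343). Of the untested ones, Klri2 averaged lower in KO and Ncr1 higher. The part of all these other cells in the results below was not tested.

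The inflammatory caspase genes, the gasdermin gene, Ripk1 and Mlkl rose in the KO, while Casp8 and Ripk3 did not pass the test. All 7 genes passed the filter on low counts, and 5 of them were higher and 0 lower at an adjusted p under 0.05. Over all 14387 genes tested, 47.3% passed in either direction, 25.1% higher and 22.2% lower. In 6 of the 7 the KO libraries lay above all WT libraries, as they did in 4898 of the 14387 tested genes. Over all tested genes 59.4% showed no overlap in one direction or the other. The median log2 fold change of the 7 was 0.64, and that of all tested genes 0.01. The rises fell into a larger group, Casp1, Casp4 and Mlkl at 3.25-fold to 4.33-fold, and a smaller one, Gsdmd and Ripk1 at 1.56-fold and 1.46-fold. Only 2.28% of tested genes had a higher fold change than Casp1, 2.82% than Casp4 and 3.26% than Mlkl, against 13.2% for Gsdmd and 16.1% for Ripk1. In bulk libraries a change in the cells that express a gene and a change in its RNA per cell cannot be told apart.

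**Figure D1:**
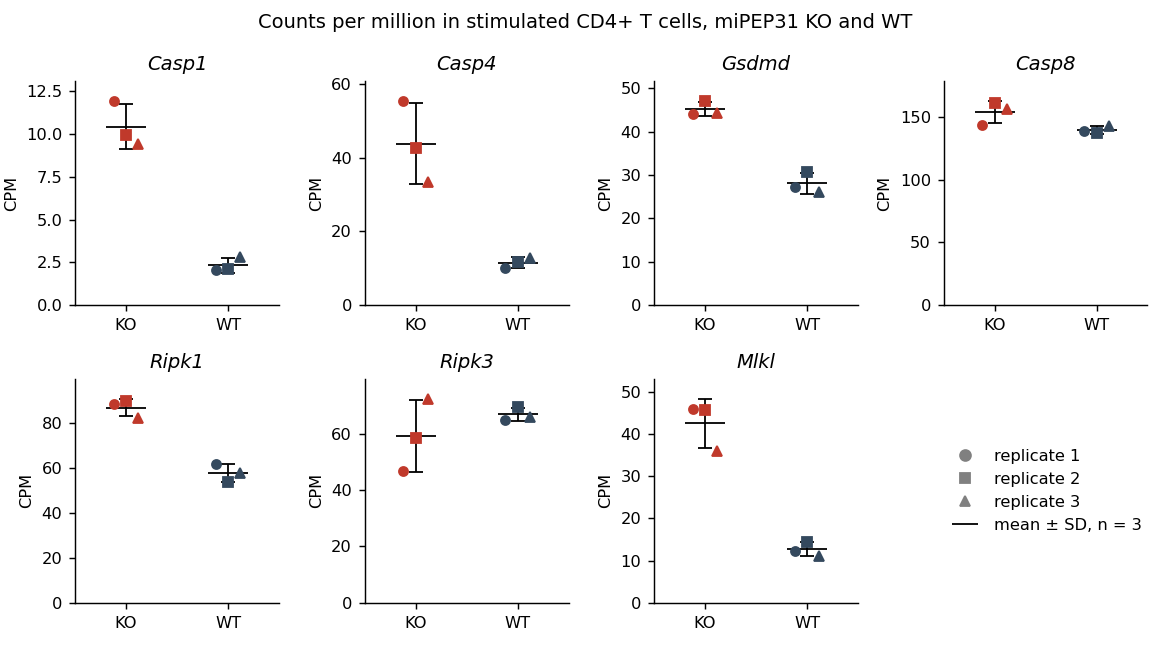
CPM of each gene in each library, KO left and WT right, with the mean and SD of 3 libraries (each axis starts at 0). The groups are separated for Casp1, Casp4, Gsdmd, Casp8, Ripk1 and Mlkl, narrowly for Casp8, and overlap for Ripk3, whose KO libraries spread from 46.9 to 72.2 CPM.

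Casp1, which encodes the protease that matures interleukin-1 beta and interleukin-18, was the least abundant of the 7 in both groups. It had 11.9, 9.93 and 9.40 CPM in the KO libraries, from 274, 261 and 215 counts, against 2.04, 2.12 and 2.82 CPM in the WT libraries, from 48, 51 and 66 counts. Every KO library stood at more than 3 times the highest WT library. The log2 fold change was 2.11 (SE 0.18, edgeR quasi-likelihood test, adjusted p = 8.46e-05). Casp4 had 55.2, 42.6 and 33.4 CPM in KO and 9.97, 11.7 and 12.9 CPM in WT. The lowest KO library was again well above the highest WT library, and the KO libraries differed more among themselves than the WT libraries (SD 11.0 and 1.46 CPM). Its log2 fold change was 1.88 (SE 0.19, edgeR adjusted p = 0.000173). The genes are neighbours on chromosome 9 of GRCm38, Casp1 at 5298517 to 5307265 and Casp4 at 5308828 to 5336783, both on the plus strand with 1562 bases between them.

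Gsdmd, at chromosome 15, 75862327 to 75867408, varied little among the KO libraries. It had 44.1, 47.0 and 44.4 CPM in KO and 27.3, 30.8 and 26.2 CPM in WT. The KO libraries lay within 3 CPM of each other and above all WT libraries. The log2 fold change was 0.64 (SE 0.08, edgeR adjusted p = 0.00044).

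Mlkl, the pore-forming end of necroptosis (chromosome 8, 111311797 to 111338177, minus strand), had the third highest fold change of the 7, after Casp1 and Casp4. It had 46.0, 45.7 and 35.9 CPM in KO and 12.4, 14.5 and 11.2 CPM in WT, which gave 1.70 on the log2 scale (SE 0.13, edgeR adjusted p = 5.7e-05). The groups were far apart, with KO replicate 3 the lowest of the KO libraries. Ripk1, which scaffolds signalling below the TNF receptor and starts necroptosis when its kinase is active (chromosome 13, 34002363 to 34037147), had 88.3, 89.6 and 82.4 CPM in KO and 61.6, 53.9 and 57.7 CPM in WT. Its groups did not overlap, and the difference was 0.54 on the log2 scale (SE 0.07, edgeR adjusted p = 0.000598). The Ripk1 row is uncertain. Its counts were not whole numbers, and 432 bases of the gene overlap Serpinb6a on the opposite strand, which had 689, 776 and 665 counts in KO and 327, 359 and 257 counts in WT. No source used here says whether the authors' counting took strand into account, so reads of this overlap cannot be told apart. Ripk1 also shares 1366 bases with Gm17083 on the opposite strand and 511 bases with Gm17084 on the same strand. Both are pseudogenes, with at most 41 counts in a library.

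Ripk3, the kinase that activates MLKL (chromosome 14, 55784995 to 55788865, minus strand), did not follow Mlkl. It had 46.9, 58.3 and 72.2 CPM in KO and 64.9, 69.5 and 66.0 CPM in WT. Of the KO libraries, 1 lay above all WT libraries and the other 2 below them. The log2 fold change was -0.22 (SE 0.14, 95% interval -0.53 to 0.09, edgeR adjusted p = 0.208). Leaving out KO replicate 3 gave -0.40, which passed the test (edgeR adjusted p = 0.00657), and leaving out KO replicate 1 gave -0.09. Over all alternatives the edgeR, DESeq2 and limma adjusted p of Ripk3 ran from 0.00657 to 0.462. Other values stood lowest in KO replicate 1 and highest in KO replicate 3 as well, among them CD8 T cell markers at 16.0, 28.6 and 37.5 CPM and B cell markers at 66.0, 87.5 and 134 CPM in KO replicates 1, 2 and 3. Others ran the opposite way over KO replicates 1, 2 and 3. Summed markers of macrophages and monocytes stood at 66.7, 44.0 and 34.6 CPM, and NK cell markers at 22.3, 17.2 and 11.5 CPM. The part of any of these cells in the Ripk3 values was not tested.

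Casp8 (chromosome 1, 58795374 to 58847503) was close to level between the groups. It had 144, 161 and 156 CPM in KO and 139, 137 and 143 CPM in WT. The lowest KO library was only just above the highest WT library. The log2 fold change was 0.09 (SE 0.06, edgeR adjusted p = 0.247), and its 95% interval ran from -0.05 to 0.23. Casp8 shares 3841 bases with Gm37760 on the same strand, which had 11, 8 and 14 counts in KO and 14, 15 and 6 in WT.

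**Figure D2:**
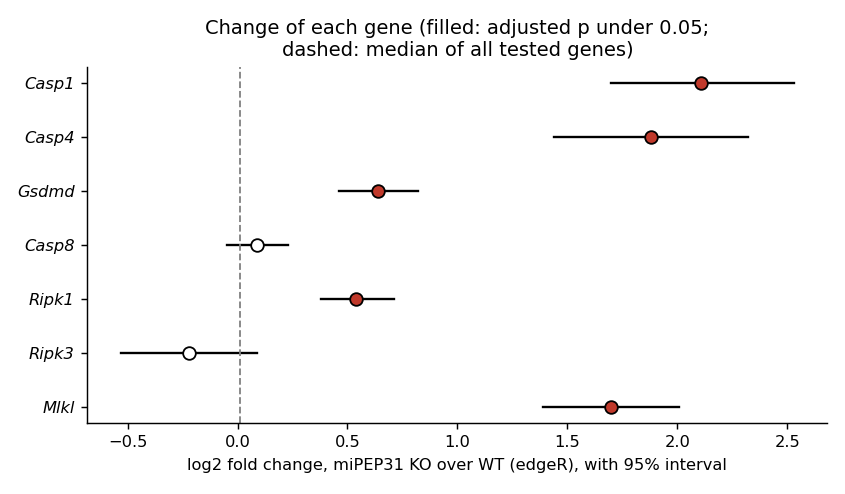
Log2 fold change of each gene, KO over WT, with its 95% interval from the edgeR fit over 3 libraries a group. The intervals of Casp1, Casp4 and Mlkl lie between 1.39 and 2.53, those of Gsdmd and Ripk1 between 0.38 and 0.82, and those of Casp8 and Ripk3 cross 0.

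Per kilobase of exon the order of the genes differed between the groups. In KO libraries it ran Casp8 at 53.0 ± 3.07 RPKM (CPM per kilobase of exon, mean ± SD, n = 3), Ripk3 at 25.8 ± 5.52, Gsdmd at 19.0 ± 0.664, Mlkl at 18.5 ± 2.50, Casp4 at 11.8 ± 2.95, Ripk1 at 10.4 ± 0.454 and Casp1 at 6.95 ± 0.876 RPKM. In WT libraries it ran Casp8 at 48.2 ± 1.09 RPKM, Ripk3 at 29.2 ± 1.04, Gsdmd at 11.8 ± 1.01, Ripk1 at 6.92 ± 0.460, Mlkl at 5.51 ± 0.735, Casp4 at 3.11 ± 0.394 and Casp1 at 1.56 ± 0.285 RPKM. Mlkl and Casp4 thus stood below Ripk1 in WT cells, and above it by their means in KO cells. The lengths joined all annotated exons of a gene, 8344 bases for Ripk1, 3710 for Casp4 and 2303 for Mlkl. The order between genes depends on these lengths, which can differ from those of the transcripts expressed. In KO the ranges of Gsdmd and Mlkl overlapped, as did those of Casp4 and Ripk1, while in WT no neighbours in the order overlapped. On this scale 6.63% of the 13870 tested genes with an annotated length had a higher level over the 6 libraries than Casp8, 13.1% than Ripk3 and 55.2% than Casp1.

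**Figure D3:**
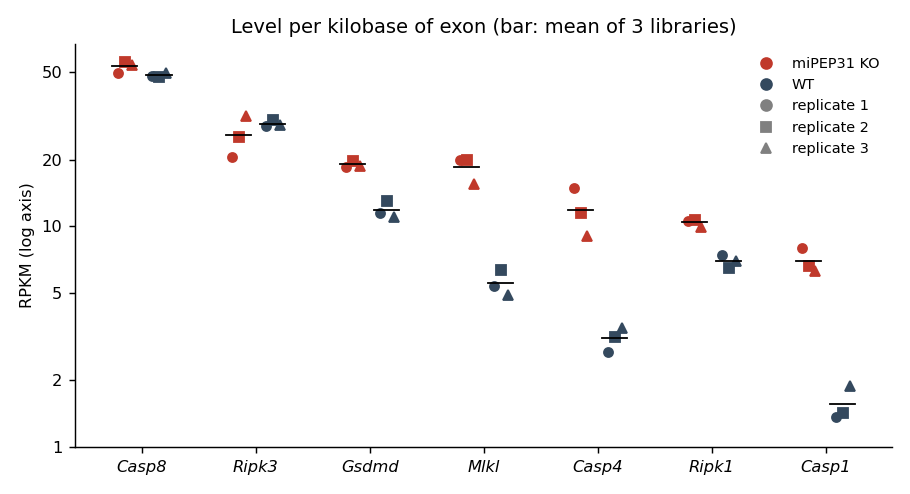
Level of each gene per kilobase of exon in each library (RPKM, logarithmic axis), KO left of WT, with a bar at the mean of 3 libraries. Casp8 and Ripk3 lead in both groups, and the distance between the groups is widest for Casp1, Casp4 and Mlkl.

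Ratios of partner genes within a library are free of library scaling, and were compared for 4 pairs. They are ratios of counts and not of molecules, since gene length is not taken into account. The ratio of Mlkl to Ripk3 was 0.981, 0.785 and 0.498 in KO libraries and 0.190, 0.209 and 0.170 in WT libraries. All KO ratios exceeded all WT ratios, a mean difference of 1.94 on the log2 scale (two-sided exact permutation p = 0.1, adjusted p = 0.2 over the 4 pairs). The ratio of Ripk3 to Ripk1 was 0.531, 0.651 and 0.875 in KO and 1.05, 1.29 and 1.14 in WT, a log2 difference of -0.79 with the same exact permutation p of 0.1. With 3 libraries against 3, 0.1 is the smallest p that this test can give. The ratio of Casp4 to Casp1 was 4.65, 4.30 and 3.55 in KO and 4.88, 5.53 and 4.56 in WT, and the groups overlapped (log2 difference -0.26, exact permutation p = 0.2, adjusted p = 0.2). The ratio of Casp8 to Ripk3 also overlapped, at 3.06, 2.76 and 2.16 in KO and 2.15, 1.96 and 2.16 in WT (log2 difference 0.33, exact permutation p = 0.2, adjusted p = 0.2).

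**Figure D4:**
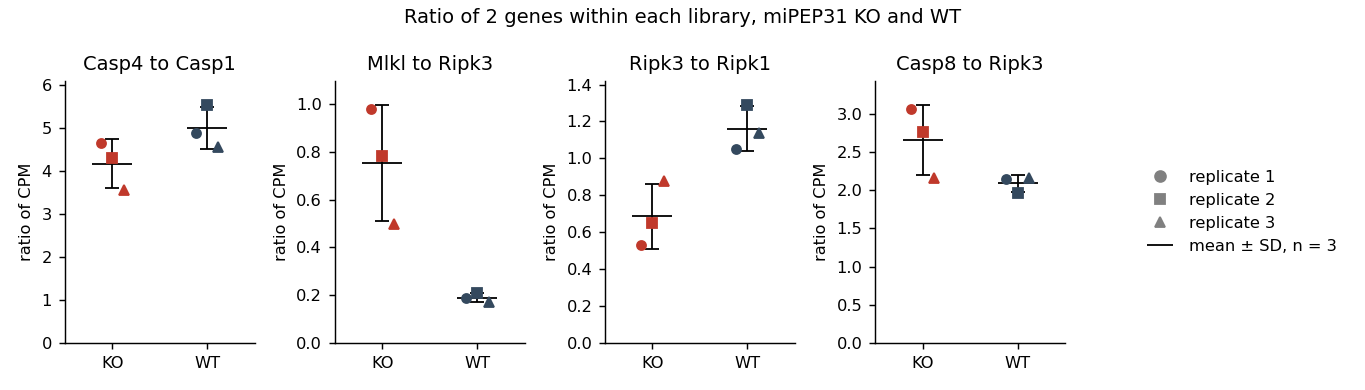
Ratio of counts of 2 genes in each library, KO left and WT right, with mean and SD of 3 libraries (each axis starts at 0). Mlkl to Ripk3 is 0.498 to 0.981 in KO and at most 0.209 in WT, Ripk3 to Ripk1 is lower in all KO libraries, and the other pairs overlap.

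Promoters were searched because the interferon-responsive expression of several of these genes is well known. Windows of 300 bases around RefSeq starts (250 before and 50 after, GRCm38.p6) were available for 6 of the 7 genes. The core of the interferon-stimulated response element, GAAANNGAA on either strand, occurred in the windows of 2 of the 6 genes, Ripk1 and Ripk3, and in 9.76% of the 27025 genes with a window. The core of the gamma-activated site, TTCNNNGAA on either strand, occurred in 1 of the 6, Ripk1, and in 9.55% of genes. The windows of Casp1, Casp4 and Mlkl, which rose the most, held neither set of letters. Their bases before the start are printed here with the second annotated start of Ripk1 (up to the end of its last match), whose window held 2 gamma-activated site cores, 108 to 100 and 11 to 3 bases before the start, and a response element core, GAAATCGAA, that overlaps the nearer of them and ends 4 bases after the start. Capitals mark these matches, and sequences run 5′ to 3′ along the gene.
Casp1, chr9:5298267-5298516, plus strand: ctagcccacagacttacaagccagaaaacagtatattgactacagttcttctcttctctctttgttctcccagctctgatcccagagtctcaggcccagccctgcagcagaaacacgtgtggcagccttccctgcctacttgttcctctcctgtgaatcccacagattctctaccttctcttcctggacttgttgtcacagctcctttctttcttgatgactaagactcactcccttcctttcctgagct
Casp4, first start, chr9:5308599-5308848, plus strand: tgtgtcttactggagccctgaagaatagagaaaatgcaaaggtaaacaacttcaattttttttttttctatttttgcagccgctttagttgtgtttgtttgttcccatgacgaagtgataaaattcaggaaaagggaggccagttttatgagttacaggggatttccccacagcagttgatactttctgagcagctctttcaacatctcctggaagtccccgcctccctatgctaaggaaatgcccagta
Mlkl, chr8:111338206-111338455, minus strand: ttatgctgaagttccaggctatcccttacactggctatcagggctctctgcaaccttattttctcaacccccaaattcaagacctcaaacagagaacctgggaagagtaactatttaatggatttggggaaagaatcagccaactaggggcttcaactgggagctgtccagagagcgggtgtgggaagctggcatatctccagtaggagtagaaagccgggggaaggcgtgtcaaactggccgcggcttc
Ripk1, second start, chr13:34002624-34002877, plus strand: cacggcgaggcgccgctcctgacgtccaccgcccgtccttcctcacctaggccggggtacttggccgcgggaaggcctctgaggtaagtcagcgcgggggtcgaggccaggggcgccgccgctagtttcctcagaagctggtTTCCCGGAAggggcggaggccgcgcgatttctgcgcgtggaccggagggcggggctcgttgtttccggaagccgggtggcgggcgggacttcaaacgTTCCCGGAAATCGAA
The Ripk3 match, GAAAGGGAA, lay 15 to 23 bases after the start. The first start of Ripk1 and the window of Casp8 held no match. A match describes letters only, and no match says nothing of sites outside these windows.

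Among the other genes of these routes, 42 of the 59 reported here passed the filter on low counts, of which 22 were higher and 4 lower in KO cells, and their median was 0.27 on the log2 scale (25.1% of all tested genes were higher and 22.2% lower). The 22 include Gsdmc4, Il18, Tlr4 and Naip6, which passed the filter through the KO libraries alone, so those calls give no support. The median takes in these genes and Il1b, which also reached the filter through its KO libraries. Of 13 measured inflammasome sensors and adaptors, 6 were tested, and all 6 were higher (median 1.01), or 4 to 6 with 1 library left out. Naip6, with 18, 36 and 43 counts in KO and 2, 7 and 13 in WT, passed the filter through the KO libraries alone. Its call among the 6 gives no support, and it enters the median. Of the untested ones, Nlrc4 had 5, 8 and 4 counts in KO and 9, 7 and 6 in WT, and Mefv had 0, 2 and 2 counts in KO and 1, 3 and 9 in WT. Pycard, the adaptor ASC that links sensors to caspase-1, had 42.1, 43.6 and 43.7 CPM in KO and 29.1, 25.9 and 26.1 CPM in WT (log2 fold change 0.63, SE 0.07, edgeR adjusted p = 0.000328). Aim2, a sensor of cytosolic DNA, rose by 0.49 (SE 0.10). Naip2 and Naip5, receptors of bacterial rod protein and flagellin, rose by 1.39 (SE 0.21) and 1.96 (SE 0.46), with Naip2 at 6.05 ± 1.28 CPM in KO and 2.23 ± 0.286 CPM in WT (SD, n = 3 each). Naip5 was scarce, at 2.61 ± 1.34 CPM in KO and 0.650 ± 0.252 CPM in WT, and the Naip genes are close paralogs that can share reads, so their levels are uncertain.

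Other executioners and substrates went both ways. Of 12 genes, 5 were tested, 2 were higher and 1 lower. The median of 1.12 is the value of Il1b, which was not called (edgeR adjusted p = 0.0922). That median is the same with Gsdmc4 at its bound. Il1b had 13, 15 and 22 counts in KO and 3, 9 and 10 counts in WT. Like Gsdmc4 and Il18, Il1b reached the count filter through its KO libraries, so the median gives no support. The remaining tested genes were Ninj1, at 0.14 and not called, and Gsdme. Il18, the cytokine precursor cut by caspase-1, had 0.651, 0.646 and 0.962 CPM in KO and 0.170, 0.167 and 0.0427 CPM in WT, from 15, 17 and 22 counts in KO and 4, 4 and 1 counts in WT. Gsdmc4 had 13, 12 and 13 counts in KO and 0 counts in WT, at least 12.4-fold higher against a floor of 3 counts over the WT group, and belongs to a family of close paralogs. Both passed the count filter through the KO libraries alone, where they are high, which favours a difference, and the 2 calls give no support. Neither gene passed a stricter 1 CPM filter, under which 0 of the list were higher. Gsdme, another pore-forming gasdermin, fell by 0.65 (SE 0.15), with 4.60, 5.10 and 4.99 CPM in KO and 8.26, 6.41 and 7.61 CPM in WT.

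Of 5 further caspase genes reported here, 3 were tested, with a median log2 fold change of -0.23. Casp2, an initiator caspase, fell by 0.23 (SE 0.06, edgeR adjusted p = 0.0108), with 74.8, 71.3 and 73.6 CPM in KO and 81.8, 83.4 and 85.0 CPM in WT. Its groups did not overlap, and the call held in every alternative run. Casp9, the initiator of the mitochondrial route of apoptosis, averaged 16.3 ± 1.64 CPM in KO and 17.8 ± 1.66 CPM in WT (SD, n = 3 each) and missed the threshold (-0.17 on the log2 scale, edgeR adjusted p = 0.237), as did Casp6.

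**Figure D5:**
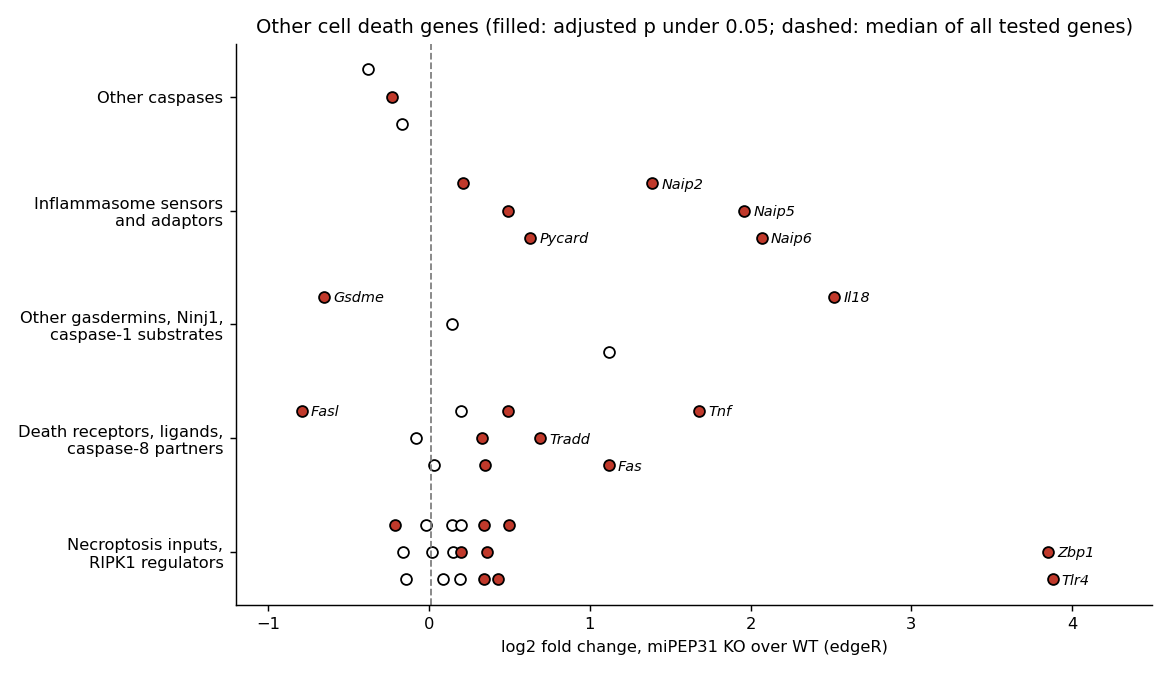
Log2 fold change, KO over WT, of the tested genes, of those reported here, in 5 lists of other cell death genes, spread vertically for legibility, with filled points at an adjusted p under 0.05. Gsdmc4, which had no WT count, is not drawn. All 6 inflammasome genes lie above 0, and Zbp1 and Tlr4 lie farthest right, at 3.85 and 3.88, the Tlr4 value resting on 1 to 2 counts a WT library.

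Of 10 death receptor genes, ligands and partners of caspase-8, all tested, 6 were higher and 1 lower (median 0.34), where 25.1% of all tested genes were higher and 22.2% lower. Tnf, the ligand that can start both apoptosis and necroptosis, had 152, 124 and 75.2 CPM in KO and 34.9, 36.1 and 35.3 CPM in WT (log2 fold change 1.68, SE 0.22, edgeR adjusted p = 0.000647). Fas, a death receptor of activated T cells, averaged 44.5 ± 7.01 CPM in KO and 19.9 ± 2.14 CPM in WT (SD, n = 3 each) and rose by 1.12 on the log2 scale (SE 0.13). The adaptor Tradd rose by 0.69 (SE 0.10), and Cflar, the caspase-8 inhibitor c-FLIP that lies next to Casp8 at 36489 bases from it, by 0.33 (SE 0.06). The 1 lower gene, named after its values were seen, was Fasl, the ligand of Fas, with 14.5, 12.0 and 8.48 CPM in KO and 24.0, 18.3 and 16.3 CPM in WT (log2 fold change -0.79, SE 0.21, edgeR adjusted p = 0.0168). The list held 0 lower genes without KO replicate 2 or WT replicate 1.

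Among necroptosis inputs and RIPK1 regulators, 18 of 19 were tested, 8 were higher and 1 lower, with a median of 0.19. The 9 called in either direction are a share close to the 47.3% called over all tested genes, of which 25.1% were higher and 22.2% lower. Zbp1, a nucleic acid sensor that engages RIPK3 directly, had 249, 205 and 178 CPM in KO and 13.9, 13.1 and 15.5 CPM in WT, a 14.4-fold difference (log2 fold change 3.85, SE 0.14, edgeR adjusted p = 2.61e-06). Tlr4, the receptor of lipopolysaccharide, had 19, 33 and 26 counts in KO and 1, 2 and 2 counts in WT, at 1.07 ± 0.222 CPM in KO and 0.0704 ± 0.0241 CPM in WT (SD, n = 3 each). It too passed the count filter through the KO libraries alone, so its call among the 8 gives no support. The kinase gene Tbk1, whose product restrains RIPK1, rose by 0.43 (SE 0.06), and Rnf31, the catalytic subunit of the linear ubiquitin ligase, by 0.34 (SE 0.06). The 1 lower gene, named after its values were seen, was Tnip1, at -0.21 (SE 0.06, edgeR adjusted p = 0.0242). With WT replicate 1 or 2 left out, with plain library sizes and with a replicate block, 0 of the list were lower.

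The genes closest in pattern were sought by the root mean square distance of log2 CPM centred over the 6 libraries, among 11836 other named genes. The closest to Casp1 were Gca and Dcbld2 (distances 0.0792 and 0.0960). For Casp4 they were Slfn2 and Egr1 (0.0754 and 0.0946), and for Mlkl Thrb and Rassf8 (0.116 and 0.118). Gsdmd was nearest to Zfp672 and H2-M3 (0.0264 and 0.0446), Ripk1 to Dusp28 and Snhg12 (0.0296 and 0.0301), Ripk3 to Rnf181 and Prelid1 (0.0216 and 0.0263), and Casp8 to Txnl4a and Csnk2b (0.0182 and 0.0218). None of the 7 genes was among the 2 nearest of another.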

How the data were processed

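RNA-seq counts were taken from the table of estimated counts per gene that the authors deposited, in which 72.2% of values above 0 were whole. Bowtie 0.12.2 and mm8 appear, with no role, in the submitters' processing notes; the counting program is named in no source used here. Counts were rounded, and CPM used the rounded totals. Symbols, positions and exon lengths came from GENCODE M21 (GRCm38) by gene ID, and promoters from RefSeq (GRCm38.p6). A deposited table of 30 genes held 0 of the 7 genes and was not used.

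Rows were kept with filterByExpr at its minimum count of 10 (14387 rows, 99.9% of counts), scaled with TMM (factors 0.983 to 1.023) and tested with edgeR 4.0.16 (quasi-likelihood, robust, no covariate) in R 4.3.3, with Benjamini-Hochberg adjustment over all rows and a threshold of 0.05. SE is the size of the log2 fold change divided by the root of F. Ratios were tested by exact permutation in scipy 1.17.1. Alternatives used DESeq2 1.42.0 and limma 3.58.1, and scripts were tested on simulated data. Floors cover the counting error of the WT counts only. They take the KO counts as observed and leave out the spread between libraries. The genes, lists and naming rule (up to 4 members per list past the threshold by smallest p, and the 2 nearest patterns) were chosen with earlier results of these data known. Card8, on the inflammasome list, matched no symbol. Of the list of other caspases, 2 genes are not reported here and enter none of its counts.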

Additional observations from a re-analysis of the deposited data

How the results depend on the processing

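The 5 rises (Casp1, Casp4, Gsdmd, Ripk1 and Mlkl) kept their call under all 8 alternatives and without each library in turn, and Casp8 passed under none. Ripk3 changed its call only without KO replicate 3, as given above, and ranged from -0.40 to -0.09 on the log2 scale without 1 library; the genes called lower among the 7 then ranged from 0 to 1. Of the further caspases 1 was called higher once low counts were no longer filtered, namely Casp12 at an edgeR adjusted p of 0.0467. Of the gasdermin list 0 were higher with the 1 CPM filter, which leaves fewer genes tested. Of the necroptosis list 2 were lower with upper-quartile scaling, 0 with plain library sizes and 0 with a replicate block, and 0 to 1 without 1 library, as also for the death receptor list. The cause was not tested. With the response element core lengthened by 1 A, 1 gene matched in place of 2. Replicate numbers did not pair the samples: deviations of same-numbered libraries correlated at 0.001, -0.007 and -0.016, and 0 of 6 libraries correlated best with their own number. With a replicate block 3049 genes were higher and 2687 lower over the whole table, against 3609 and 3197 without it. Depth limits genes with few counts, such as Casp12 and Tlr3.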

Other observations

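Of the genes under the count filter, 6 had more than 3 counts over the KO libraries and none in WT libraries. They were chosen here for that pattern. Gsdma and Gsdma3, each with 0, 0 and 1 counts in KO and 0 in WT, fell below that number. Tlr3, a receptor of double-stranded RNA, had 10, 3 and 6 counts in KO and 0 in WT, at least 6.22-fold higher against 3 counts over the WT group. Nlrp6, a sensor, had 2, 6 and 4 counts in KO and 0 in WT, at least 3.93-fold higher. Casp12, which lies in the same gene family as Casp1 and Casp4, had 3, 4 and 3 counts in KO and 0 in WT, at least 3.27-fold higher. Without the low-count filter these had edgeR adjusted p of 0.00723 for Tlr3, 0.0328 for Nlrp6 and 0.0467 for Casp12. The other three did not pass: Nlrp1a had 2, 1 and 4 counts in KO (edgeR adjusted p = 0.102), Nlrp1b 1, 2 and 3 (edgeR adjusted p = 0.128) and Gsdmc3 2, 5 and 0 (edgeR adjusted p = 0.128). Choosing the 6 for this pattern favours a difference, so their adjusted p values give no support. Casp14 had 0 counts in KO and 1 count in WT. Nlrp3, the most studied sensor of caspase-1, had 1, 15 and 14 counts in KO and 7, 8 and 7 counts in WT (edgeR adjusted p = 0.742 without the filter).

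The genes named here were chosen after their values were seen. Casp6, an executioner caspase, differed widely between KO libraries, at 64.0, 98.3 and 157 CPM in KO and 103, 149 and 149 CPM in WT (log2 fold change -0.38, 95% interval -1.05 to 0.29, edgeR adjusted p = 0.315). Neighbours of the genes that rose, taken as the nearest tested protein-coding genes at any distance, went different ways. Msantd4, 911646 bases from Casp1 on the side away from Casp4, had a log2 fold change of 0.63 (edgeR adjusted p = 0.000781). Dync2h1, 1591719 bases beyond Casp4, had -0.47 (edgeR adjusted p = 0.00411). Next to Mlkl, Rfwd3 and Wdr59 had log2 fold changes of 0.07 (edgeR adjusted p = 0.549) and 0.23 (edgeR adjusted p = 0.0527), and next to Gsdmd, Zc3h3 had 0.04 (edgeR adjusted p = 0.707) and Mroh6 -0.61 (edgeR adjusted p = 0.233). Next to Ripk1, Nqo2 had 0.50 (edgeR adjusted p = 0.166) and Bphl -0.34 (edgeR adjusted p = 0.153).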
